A study of Mus musculus with 8 samples.

Results

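The odorant receptor (OR) genes Olfr829 to Olfr888 form a numbered series on mouse chromosome 9. The members were the genes whose symbol is Olfr followed by digits only, with a number in that range, and which had a transcript cluster of their own on the array. They number 38 of 1015 OR genes and of 19928 genes tested. Of the 60 numbers in the series, 22 gave no member. RefSeq lists 20 of these as pseudogenes, of which Olfr856-ps1 has a cluster of its own but not a symbol of digits only. The other two, Olfr884 and Olfr885, are protein coding but lie only on clusters shared with other OR genes. RefSeq places all 38 members on chromosome 9, and their numbers follow the RefSeq gene order with 0 exceptions.

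Transcript abundance was measured in olfactory mucosa of 8 mice at postnatal day 3, with 1 Affymetrix Mouse Gene ST array per mouse. The 4 conditional knockout mice (cKO) were 123Cre:Lhx2(fl/fl). The 4 littermate controls were 2 Lhx2(fl/+) mice and 2 123Cre:Lhx2(fl/+) mice, so every control carried a floxed Lhx2 allele, and all mice had a mixed 129 x C57BL/6J background. Per the study, 123Cre becomes active in immature olfactory sensory neurons (OSNs), its deletion of the floxed Lhx2 exons is incomplete, and many OSNs of the cKO mice keep Lhx2. The question was how loss of Lhx2, a LIM-homeodomain transcription factor, changes OR mRNA abundance.

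ORs are G-protein-coupled receptors that bind odorants at the cilia of OSNs and signal through a G protein and adenylyl cyclase. A mature OSN expresses a single allele of a single OR gene, so in whole mucosa the abundance of an OR mRNA depends on how many OSNs chose that gene as well as on how much mRNA each of them holds. In bulk samples such as these, fewer cells of a type and less RNA per cell cannot be told apart. OR genes lie in clusters along the chromosomes, and their upstream regions often hold homeodomain motifs, which Lhx2 can bind, and Olf1/Ebf-like motifs, which Ebf factors can bind.

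Upstream windows are shown for 4 members that the results return to: Olfr859 and Olfr845, which fell most among those past the test, Olfr866, which had the difference nearest 0 among members with a window, and Olfr877, which had the highest control level. Each window is RefSeq sequence of build GRCm38.p6, written 5′ to 3′ on the strand of the gene, with 250 bases before and 50 bases from the annotated start of the gene. Capitals mark the motifs TAATTA and TAATGA on either strand (TAATGA reads TCATTA on the other).
Olfr859, chr9:19808070-19808369, plus strand: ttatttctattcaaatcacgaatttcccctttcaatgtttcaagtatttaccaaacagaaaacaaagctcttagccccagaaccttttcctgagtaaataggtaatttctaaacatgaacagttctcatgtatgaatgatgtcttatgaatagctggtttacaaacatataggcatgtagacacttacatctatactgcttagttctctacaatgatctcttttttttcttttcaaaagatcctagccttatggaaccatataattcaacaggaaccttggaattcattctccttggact
Olfr845, chr9:19338209-19338508, plus strand: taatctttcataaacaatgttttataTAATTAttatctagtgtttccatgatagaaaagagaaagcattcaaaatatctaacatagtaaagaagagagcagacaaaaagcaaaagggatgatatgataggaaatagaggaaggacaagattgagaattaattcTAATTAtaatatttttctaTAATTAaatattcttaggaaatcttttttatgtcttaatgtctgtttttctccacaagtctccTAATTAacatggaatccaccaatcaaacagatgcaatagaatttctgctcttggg
Olfr866, chr9:20027986-20028285, minus strand: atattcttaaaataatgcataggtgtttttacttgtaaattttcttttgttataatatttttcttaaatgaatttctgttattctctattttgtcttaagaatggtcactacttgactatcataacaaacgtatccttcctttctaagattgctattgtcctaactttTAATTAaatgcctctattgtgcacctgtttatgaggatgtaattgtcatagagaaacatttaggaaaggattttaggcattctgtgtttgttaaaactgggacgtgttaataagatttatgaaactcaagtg
Olfr877, chr9:37854570-37854869, plus strand: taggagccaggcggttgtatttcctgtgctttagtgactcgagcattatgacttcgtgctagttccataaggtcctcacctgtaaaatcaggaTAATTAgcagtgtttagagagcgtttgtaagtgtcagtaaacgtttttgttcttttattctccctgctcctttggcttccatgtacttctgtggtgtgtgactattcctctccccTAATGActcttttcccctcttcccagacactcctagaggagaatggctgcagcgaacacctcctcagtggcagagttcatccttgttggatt
The Olfr845 window held 4 copies of TAATTA, the Olfr866 window 1, the Olfr877 window 1 copy of each motif, and the Olfr859 window neither. In 18 of the 33 member windows the start base was the A of an ATG, so for these the window precedes a start codon and does not mark where transcription begins. The remaining windows are not shown to mark it either: that of Olfr845 holds an ATG shortly after its last TAATTA.

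A window was on hand for 33 of the 38 members. TAATTA was found in 12 of them (36.4%), against 17.7% of the windows of other OR genes and 5.29% of all gene windows. TAATGA was found in 13 (39.4%), against 28.4% and 9.78%. At least 1 of the 2 motifs was present in 20 member windows (60.6%), against 39.9% of windows of other OR genes and 13.9% of all gene windows, and no matches of the 2 motifs overlapped within the member windows. The Olf1/Ebf-like letters CCCNNGGG, searched on both strands, were in 0 member windows, against 3.12% of windows of other OR genes and 13.7% of all gene windows. By position, 19 of 25 windows between Olfr829 and Olfr873 held TAATTA or TAATGA, and 1 of 8 between Olfr874 and Olfr888, that of Olfr877. The median cKO minus control difference was -1.20 on the log2 scale for the 20 members with a match and -0.80 for the 13 without. The medians by position were the same, -1.20 for all members from Olfr829 to Olfr873 and -0.80 for those from Olfr874 to Olfr888. As 19 of the 20 members with a match lie between Olfr829 and Olfr873, motif and position cannot be told apart here, and neither was tested. The start base was the A of an ATG in 54.5% of member windows, 73.1% of windows of other OR genes and 5.83% of all gene windows. The motif shares therefore compare unlike windows. They are counts of letters in fixed windows, given as a description.

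Array medians lay between 8.82 and 8.89 on the log2 scale over all genes. The Lhx2 cluster, which combines probes over the whole gene and not the deleted exons alone, read 13.03, 12.55, 13.01 and 13.02 in cKO mice 1 to 4, against 13.14, 13.09, 13.20 and 13.13 in controls 1 to 4. The groups did not overlap, but the difference of -0.24 ± 0.11 (SE) did not pass the test (limma, adjusted p = 0.337). Omp, the olfactory marker protein of mature OSNs, fell by 0.97 on the log2 scale (adjusted p = 0.00605), and so did Adcy3, the adenylyl cyclase of odor transduction, by 0.86 (adjusted p = 0.00267). Of 20 mature OSN markers 6 fell and 0 rose, and their mean level over the list was 11.08 to 11.66 in cKO mice and 12.10 to 12.18 in controls. Of 16 immature OSN markers 1 fell and 0 rose. Among them 5 had an unadjusted p under 0.05 by limma, 1 of these higher, and in 4 all cKO values lay below all control values. Gap43, the growth cone protein of immature OSNs, differed by -0.29 (adjusted p = 0.268), with all cKO values below all control values. Markers of sustentacular, horizontal basal, respiratory ciliated, dividing, ensheathing glia, macrophage and blood cells gave 0 calls in limma, while 4 of 8 ciliated and 2 of 8 dividing cell markers had an unadjusted p under 0.05. Over all genes, 2989 of 19928 had an unadjusted p under 0.05 by limma. The mature OSN markers moved with the OR genes, and their part in the result was not tested beyond the values given with the mature OSN list subtracted.

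All 38 members were lower in cKO mice by their fitted difference. At an adjusted p under 0.01 by limma, 20 members fell (52.6%), 0 rose and 18 did not pass, where 2.07% of all genes tested fell. At an adjusted p under 0.05, 30 members were lower, where 5.17% of all genes were. All 4 cKO values lay below all 4 control values in 33 members, against 8.43% of all genes. The median difference over the members was -1.13 (quartiles -1.48 and -0.71), which is 45.8% of the control level, while the median over all genes was 0.03. In 22 members the cKO mean was under 50% of the control mean. The count of calls moved with single arrays: 21 members passed without cKO mouse 1, 28 without cKO mouse 2, 4 without cKO mouse 3 and 8 without cKO mouse 4. The count was 3, 5, 6 and 5 without controls 1, 2, 3 and 4, and 0 rose in each case. With the methods' t-test 0 of 38 passed after Benjamini-Hochberg adjustment over all genes. Before adjustment, 35 had a p under 0.05 and 29 a p under 0.01 by that t-test. It was run here without the study's scaling to mature OSN mRNAs, so it does not repeat the study's own analysis. By limma, 37 members had an unadjusted p under 0.05, where 2989 of all 19928 genes did.

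**Figure D1:**
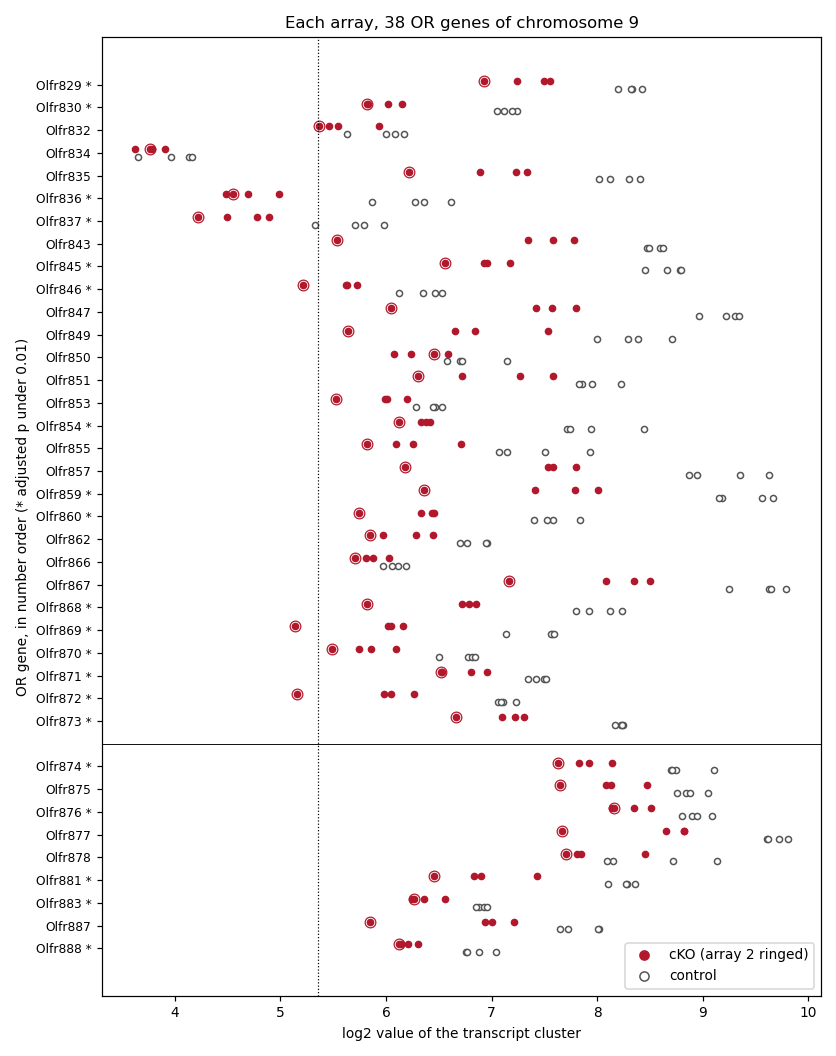
Log2 value of every array (x axis) for the 38 OR genes in number order (y axis), with cKO arrays as filled points above control arrays as open points; the horizontal line separates the 2 runs of OR genes, and the dotted line marks 5.36, the median of 162 genes for vomeronasal receptors. In 33 genes all cKO points lie left of all control points, and the ringed cKO mouse 2 is the lowest cKO point in 33 genes.

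The spread within the cKO group was uneven. The mean over the 38 members was 6.84, 6.09, 6.66 and 6.69 in cKO mice 1 to 4 and 7.62, 7.74, 7.62 and 7.74 in the 4 controls. All 4 cKO means were below all control means, and cKO mouse 2 was the lowest. That mouse gave the lowest cKO value in 33 of 38 members, cKO mouse 4 in 4, cKO mouse 3 in 1 and cKO mouse 1 in 0. Without cKO mouse 2 the mean difference over the members was -0.95, against -1.11 with it, and 28 members passed. The same mouse also had the lowest Omp and Lhx2 values of all 8. It was the only cKO mouse read as female from sex-linked mRNAs, where 2 of the controls were, and the only one whose sample title carries the letter B, whose meaning is not stated. Within letter A the mean difference was -0.95 and within letter B, with 1 cKO mouse, -1.59. Both letter A controls are 123Cre:Lhx2(fl/+) and both letter B controls are Lhx2(fl/+), so the within-letter values also differ in control genotype. The number of members past the test was 25 with sex and 26 with the title letter as a block. The parts of sex, letter, control genotype and animal in these differences, and of sex, letter and animal in the low values of cKO mouse 2 cannot be told apart.

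**Figure D2:**
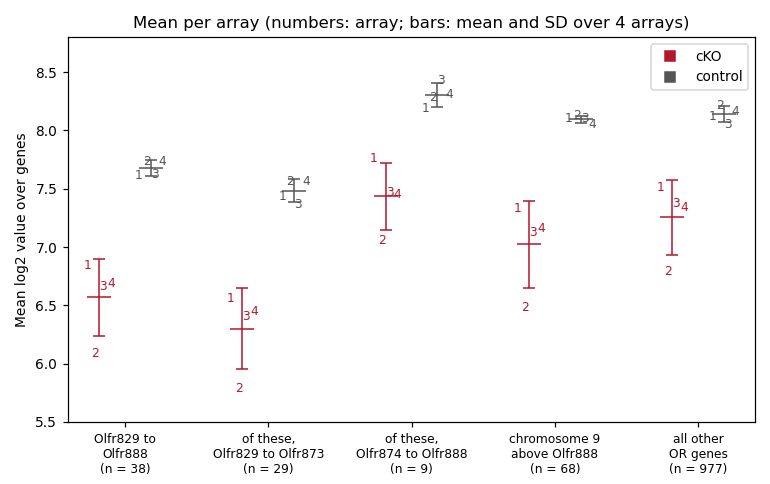
Mean log2 value per array (y axis) over the 38 genes, their 2 runs, the higher numbers on chromosome 9 and all other OR genes (x axis), cKO in red to the left of control in grey; digits name the arrays and bars show mean and SD over 4 arrays. In each set all 4 cKO means lie below all 4 control means, and cKO mouse 2 is the lowest.

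The deepest falls were in the middle of the series. Olfr859 read 7.79, 6.36, 7.41 and 8.01 in cKO mice 1 to 4, against 9.18, 9.67, 9.15 and 9.57 in controls 1 to 4. Its groups were more than 1 log2 unit apart at their closest, and its difference of -1.999 ± 0.32 (SE, adjusted p = 0.00891) left 25.02% of the control level. Olfr845, whose window above holds 4 TAATTA motifs, read 7.18, 6.56, 6.96 and 6.92 in cKO mice, against 8.66, 8.79, 8.45 and 8.79 in controls. The cKO values lay far below the controls, with a difference of -1.77 ± 0.13 (adjusted p = 0.000752, 29.3% of control). Olfr854 read 6.42, 6.12, 6.38 and 6.34 in cKO mice, against 7.71, 7.94, 7.74 and 8.44 in controls, a difference of -1.64 ± 0.15 (adjusted p = 0.00186). Here the cKO mice lay within 0.30 of each other and control 4 stood above the other controls.

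Olfr830 had the smallest adjusted p beside Olfr845. It read 6.15, 5.82, 5.83 and 6.02 in cKO mice, against 7.12, 7.25, 7.05 and 7.20 in controls, and fell by 1.20 ± 0.08 (adjusted p = 0.000752). The groups were narrow and did not overlap. Olfr830, Olfr845 and Olfr854 were the only 3 members that passed with every single array left out in turn.

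Olfr836 read 4.69, 4.55, 4.99 and 4.49 in cKO mice, against 6.36, 6.62, 5.87 and 6.27 in controls, and fell by 1.60 ± 0.16 (adjusted p = 0.00211). Its cKO mean was below 5.36, the median of 162 genes for vomeronasal receptors, which are used mainly in the vomeronasal organ and stand here for background. Olfr837 likewise had a cKO mean under that level, with 4.89, 4.22, 4.78 and 4.50 in cKO mice, against 5.80, 5.70, 5.33 and 5.98 in controls, and fell by 1.11 ± 0.17 (adjusted p = 0.00772). Near background a log2 difference can understate a change, and whether it did so for these 2 falls was not tested.

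Among the members from Olfr859 to Olfr873, 4 more fell by over 1.2 log2 units. Olfr869 read 6.05, 5.14, 6.16 and 6.02 in cKO mice, against 7.57, 7.56, 7.14 and 7.59 in controls (-1.62 ± 0.22, adjusted p = 0.00482). Each group had 1 low mouse, cKO mouse 2 and control 3, and the groups stayed apart. Olfr868 differed by -1.48 ± 0.22 (adjusted p = 0.00676), Olfr860 by -1.35 ± 0.16 (adjusted p = 0.00371) and Olfr872 by -1.26 ± 0.21 (adjusted p = 0.00927). In all 3, cKO mouse 2 was the lowest of the 8. Olfr873 read 7.31, 6.67, 7.10 and 7.23 in cKO mice, against 8.24, 8.22, 8.17 and 8.24 in controls, with controls within 0.07 of each other. It fell by 1.15 ± 0.12 (adjusted p = 0.00265).

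Some smaller falls passed the test where the replicates were tight. Olfr888, the last of the series, read 6.21, 6.13, 6.15 and 6.31 in cKO mice, against 6.88, 7.05, 6.76 and 6.77 in controls, and fell by 0.67 ± 0.07 (adjusted p = 0.00268). Olfr883 read 6.56, 6.26, 6.25 and 6.36 in cKO mice, against 6.89, 6.85, 6.93 and 6.96 in controls. Its fall of 0.55 ± 0.07 (adjusted p = 0.00469) was the smallest called, and the groups did not overlap. The other called members were Olfr881 (difference -1.35), Olfr829 (-1.01), Olfr870 (-0.94), Olfr874 (-0.94), Olfr846 (-0.82), Olfr871 (-0.74) and Olfr876 (-0.64), with adjusted p-values between 0.00434 and 0.00714. Of these, Olfr881 had neither a small fall nor tight replicates, as its cKO values spread over 0.975.

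Several members with differences as deep did not pass. Olfr847 read 7.42, 6.05, 7.58 and 7.80 in cKO mice, against 9.22, 9.31, 9.34 and 8.97 in controls, a difference of -1.998 with an adjusted p of 0.0104, just over the threshold. The groups were well apart, with cKO mouse 2 more than 1 log2 unit under the other cKO mice. Olfr867, an abundant member, read 8.35, 7.17, 8.09 and 8.50 in cKO mice, against 9.63, 9.78, 9.25 and 9.65 in controls (-1.55, adjusted p = 0.0114). Olfr877, the member with the highest control level, read 8.82, 7.67, 8.82 and 8.65 in cKO mice, against 9.61, 9.72, 9.81 and 9.62 in controls (-1.20, adjusted p = 0.0196). In both, the groups did not overlap and cKO mouse 2 lay about 1 log2 unit below the rest. The median standard error was 0.13 for the 20 called members and 0.23 for the 18 others, while their median differences were -1.17 and -1.05.

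In 5 members the groups overlapped. Olfr834 read 3.91, 3.77, 3.78 and 3.62 in cKO mice, against 4.13, 3.96, 4.17 and 3.66 in controls (-0.21, adjusted p = 0.454). Both groups were under 5.36, the median of the vomeronasal receptor genes, which is not a detection limit. Whether the low signal hid a difference was not tested. Olfr866, whose window above holds 1 TAATTA, read 6.03, 5.70, 5.81 and 5.88 in cKO mice, against 6.19, 5.97, 6.12 and 6.06 in controls (-0.23, adjusted p = 0.177). Only cKO mouse 1 reached into the range of the controls. Olfr832 differed by -0.39 (adjusted p = 0.228), Olfr850 by -0.45 (adjusted p = 0.146) and Olfr878 by -0.57 (adjusted p = 0.33). Olfr878 was also the member in which the 2 kinds of control, which differ in both genotype and title letter, lay farthest apart. It read 9.13 and 8.72 in the 123Cre:Lhx2(fl/+) controls, against 8.15 and 8.09 in the Lhx2(fl/+) controls. Olfr853 did not overlap but differed by only -0.50 (adjusted p = 0.0696).

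The 38 members fell into 2 runs of neighbouring OR genes, which 159 other protein-coding genes separate. The first run, Olfr829 to Olfr873, held 29 members, of which 15 fell, with a median difference of -1.20. The second began with Olfr874 and held 9 members up to Olfr888, of which 5 fell, with a median of -0.80. The difference between the medians, -0.40, was not tested, and it was -0.68 with dim genes left out and -0.25 with only the 123Cre:Lhx2(fl/+) controls. Control levels were lower in the first run, with a median of 7.46, than in the second, with 8.52. By blocks of 10 numbers, the median difference was -1.11 in Olfr829 to Olfr838, -1.63 in Olfr839 to Olfr848, -1.19 in Olfr849 to Olfr858, -1.41 in Olfr859 to Olfr868, -0.94 in Olfr869 to Olfr878 and -0.88 in Olfr879 to Olfr888. The number called in these blocks was 4 of 7, 2 of 4, 1 of 7, 3 of 6, 7 of 10 and 3 of 4, so the blocks with the deepest medians were not those with the most calls.

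**Figure D3:**
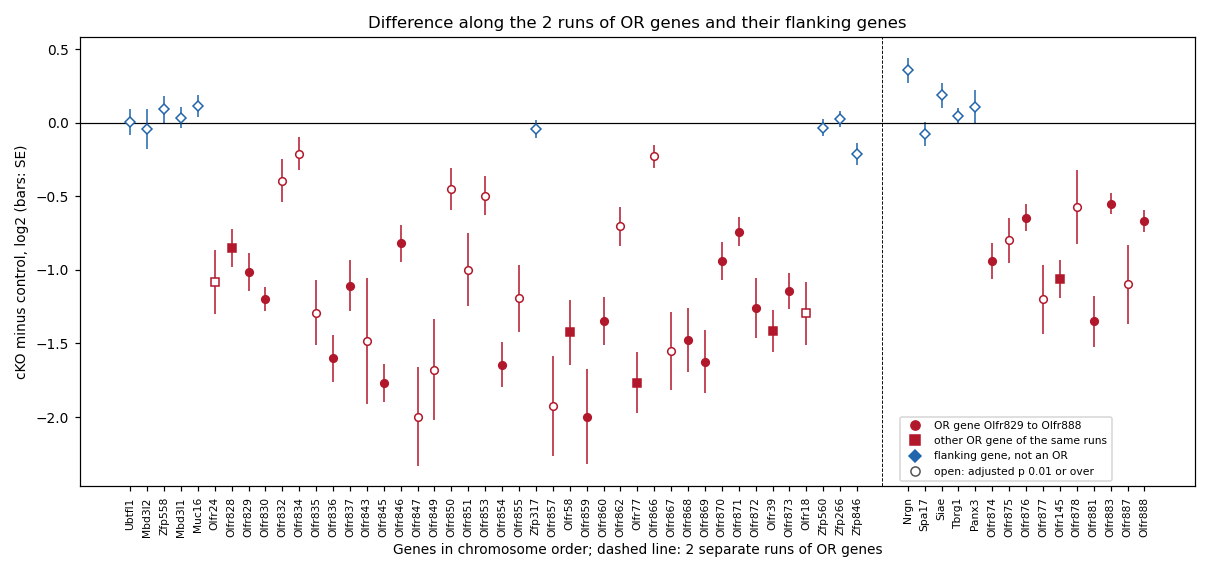
Difference, cKO minus control in log2 with SE bars (y axis), of genes in chromosome order (x axis): OR genes in red, with squares for those outside the number series, and flanking genes that are no OR in blue; filled symbols passed an adjusted p of 0.01. OR genes lie below 0 on both sides of the dashed line that separates the runs, and the 14 flanking genes lie between -0.21 and 0.36.

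Neighbouring members were about as far apart in their differences as other pairs. Within a run, members next to each other in number differed by a median of 0.51 log2 units (36 pairs), against 0.50 for all pairs within a run (442 pairs) and 0.48 for pairs of the same MOR family (39 pairs). The MOR families group receptors by older names for similar sequence, and the members belong to 16 of them. All 3 members of MOR152 (Olfr830, Olfr836 and Olfr837) fell, as did both of MOR141 (Olfr870 and Olfr871) and 4 of 5 of MOR145, where Olfr866 was the exception. In MOR146, 2 of 4 fell, with the deepest median of the families with more than 2 members, -1.64. In MOR153, Olfr832 and Olfr834 both failed the test, with a median of -0.30. In MOR155, 0 of 2 passed, though its median of -1.24 was as deep as that of MOR152 (-1.20) and deeper than that of MOR141 (-0.84). Of all members 52.6% were called lower, of all OR genes 30.15% and of all genes 2.07%. The families are small, and differences between them were not tested. Receptors of a family can share probe sequence, and a cluster can then read more than its own gene.

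The OR genes of the same runs that carry other numbers were lower too. Of these 7, 5 fell at an adjusted p under 0.01 and in all 7 the groups did not overlap, where 2.07% of all genes and 30.15% of all OR genes were called lower and 8.43% of all genes and 80.3% of all OR genes did not overlap. Olfr77, between Olfr862 and Olfr866, read 8.22, 7.17, 7.92 and 7.86 in cKO mice, against 9.44, 9.34, 9.87 and 9.58 in controls, and fell by 1.77 (adjusted p = 0.00352). Olfr39, near the end of the first run, fell by 1.42 (adjusted p = 0.00209). The 14 genes measured beside or within the runs that encode no OR behaved otherwise: 0 passed by limma, 2 had an unadjusted p under 0.05 by limma and 2 by the methods' t-test, and their median difference was 0.03. Among all 19928 genes, 2989 had an unadjusted p under 0.05 by limma. In 1 of the 14, Zfp846, all cKO values lay below all control values (-0.21, adjusted p = 0.178 by limma). In Nrgn all cKO values lay above all control values (0.36, adjusted p = 0.0502). Zfp317, a zinc finger gene inside the first run, read 9.92, 9.98, 9.98 and 9.98 in cKO mice, against 9.93, 9.93, 10.17 and 10.01 in controls (-0.04, adjusted p = 0.804). Its groups overlapped, while OR genes on both sides of it were lower. Olfr856-ps1, a pseudogene in the first run, differed by -0.19 (adjusted p = 0.364).

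The 2 clusters shared by several OR genes, which entered no gene test, hold Olfr884 and Olfr885. The cluster of 8 genes (Olfr881, Olfr883, Olfr884, Olfr885, Olfr887, Olfr889, Olfr901 and Olfr983) read 7.99, 6.60, 7.74 and 7.73 in cKO mice, against 9.03, 9.12, 9.20 and 9.23 in controls. The cluster of 7 of these genes, without Olfr881, averaged 7.39 in cKO mice and 8.95 in controls. In both the groups were far apart, by -1.64 and -1.56. The signal cannot be divided among the genes, and Olfr881, Olfr883 and Olfr887 have clusters of their own with differences of -1.35, -0.55 and -1.10.

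Members with higher control levels had larger differences. Across the 38 members, the control mean and the difference had a Pearson r of -0.60 and a Spearman rho of -0.55. The values were -0.78 and -0.76 in the 29 members of the first run, -0.39 and -0.25 in the 9 of the second, and -0.41 and -0.38 in 977 other OR genes. Genes share the same 8 arrays and are not independent replicates, and the difference contains the control mean. Background signal can also compress the change of dim genes. For these reasons the values only describe the plot. All 5 members with a control mean over 9 differed by -1.20 or more, but only Olfr859 among them passed the test.

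**Figure D4:**
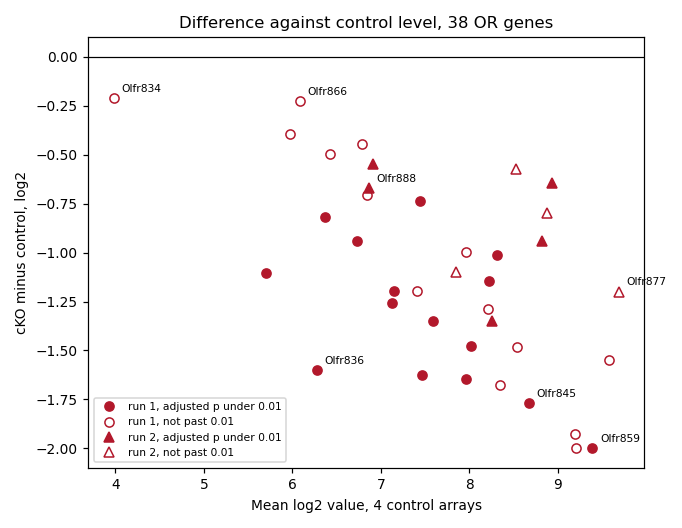
Difference, cKO minus control in log2 (y axis), against mean log2 level of the 4 controls (x axis) for the 38 OR genes, with circles for the first run, triangles for the second and filled symbols for an adjusted p under 0.01. Olfr834 lies at the dim end with -0.21 and Olfr859 near the bright end with -1.999.

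Per its methods, the study scaled OR mRNAs by the mean difference of a much longer list of mature OSN mRNAs. That list was not used here, and the step below is another one, whose size rests on 20 markers. With the mean difference of the 20 mature OSN markers, -0.68, subtracted as a constant, the median difference of the members was -0.45, 29 members lay below 0 and 9 lay above it. At an adjusted p under 0.01, 1 member then passed, Olfr845 with -1.09 (adjusted p = 0.00964). Subtracted array by array, 2 passed, Olfr845 (adjusted p = 0.00114) and Olfr873 (adjusted p = 0.00528). At an adjusted p under 0.05, 4 members were lower and 1 higher with the constant, and 14 lower and 1 higher with the array values. At an unadjusted p under 0.05, 20 members passed with the constant, 2 of them higher, and 27 with the array values, 3 of them higher. A smaller factor would leave the members further below 0, so these values hold for this factor only.

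The median difference of the members, -1.13, was set beside that of other OR genes. The 68 OR genes with numbers above Olfr888 on chromosome 9 had a median of -1.06, and the 977 OR genes outside the members one of -0.86. The share called lower was 52.6% of the members, 36.8% of the higher numbers (25 genes) and 29.3% of the other OR genes (286 genes). These shares belong to the threshold of 0.01. With the threshold loosened to 0.05, calls covered 30 of 38 members, 58 of 68 higher numbers and 649 of 977 other OR genes. The higher numbers then had a larger share than the members, so the order of these sets depends on the threshold. The groups did not overlap in 33 of 38 members and in 61 of the 68 higher numbers, against 80.0% of the 977 other OR genes and 8.43% of all genes. The difference in median between the members and the higher numbers, -0.07, had the other sign without control 4, at 0.06. None of these differences was tested. Between the 2 kinds of control, whose genotype and title letter cannot be told apart, the 123Cre:Lhx2(fl/+) controls were above the Lhx2(fl/+) controls in 20 of 38 members, with a median difference of 0.01.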

How the data were processed

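RNA of olfactory mucosa was hybridised to Affymetrix Mouse Gene 1.0 ST arrays. The authors deposited 1 log2 value per array and transcript cluster, made with Affymetrix Expression Console per the submitters' processing notes. How background was corrected and values were summarized and normalized was not given in the sources used here, and between-array differences in processing could move small differences. Columns of no sample numbered 0. Of 28312 clusters, the platform annotation gave 1 symbol for 21759, several for 1605 and none for 4948, and 21668 were matched by Entrez identifier to RefSeq (GRCm38.p6). The cluster with the highest mean was kept per gene, leaving 19928 genes. RefSeq served for names, gene order and upstream windows. The genome build of the array design is unknown here.

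Groups came from the genotype labels. Differences were tested two-sided with limma 3.58.1 in R 4.3.3 (lmFit, eBayes), with Benjamini-Hochberg adjustment over all genes and a threshold of 0.01. The script was tested on simulated data. Depth has no counterpart on arrays: their number, 4 per group, limits the precision, and the median SE over all genes was 0.07. The members, lists and motifs were chosen with earlier results of these data known. Named genes were the members past the threshold, the 5 nearest 0, the 3 with the highest control level, and Lhx2, Omp, Adcy3 and Gap43. Other members and their neighbours are named after their values were seen, and so is the window of Olfr877. The part of the rule that uses proteins was not applied. Alternatives were another test, threshold, normalization, filter, moderation, cluster rule and control genotype, blocks, array weights, the mature OSN shift and single arrays left out. Figures were drawn with Python 3.11.15 and matplotlib 3.10.9.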

Additional observations from a re-analysis of the deposited data

Results flagged for a closer look

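In 9 of 90 groups of 4 arrays, 1 array stood apart from the other 3 by more than the 95% critical value of Dixon's test allows, where chance gives about 5% of groups. In 7 of the 9 it was cKO mouse 2, the lowest of its group. It read 6.18 in Olfr857 (others 7.54 to 7.80), 5.74 in Olfr860 (6.34 to 6.45), 5.82 in Olfr868 (6.72 to 6.85), 5.14 in Olfr869 (6.02 to 6.16) and 7.67 in Olfr877 (8.65 to 8.82). It was also low in Lhx2, at 12.55 (13.01 to 13.03), and in Omp, at 11.997 (12.59 to 12.68). Control 3 was low in Olfr869, at 7.14 (7.56 to 7.59), and high in Olfr874, at 9.11 (8.70 to 8.75). Genes on 1 array are not independent, so these groups share their mice.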

How the results depend on the processing

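By limma 20 members were lower. The count was 0 with the methods' t-test, run without the study's scaling (35 members before adjustment, at a p under 0.05). It was also 0 with only the Lhx2(fl/+) controls (35) and 0 with only the 123Cre:Lhx2(fl/+) controls (36), settings that leave 2 controls. It was 1 with the mature OSN shift as a constant, 2 array by array, 7 of 15 tested with dim genes left out and 30 at an adjusted p under 0.05. Leaving out single arrays gave 3 to 28. Other settings stayed between 19 and 26, and 0 members were higher in any of these counts. With the shifts and an adjusted p under 0.05 by limma, 1 member was higher, Olfr866 (adjusted p = 0.03 with the constant and 0.0373 array by array). The median difference was -0.45 under both shifts and otherwise kept within the spread between mice. With this shift of -0.68 subtracted, as a constant or array by array, 9 members changed sign, which holds for a shift of this size only: Olfr832 (0.28), Olfr834 (0.47), Olfr850 (0.23), Olfr853 (0.18), Olfr866 (0.45), Olfr876 (0.035), Olfr878 (0.11), Olfr883 (0.13) and Olfr888 (0.01). The gap in median between the runs was -0.49 to -0.34 with single arrays left out, -0.68 with dim genes left out and -0.25 with only the 123Cre:Lhx2(fl/+) controls. That between the members and the higher numbers was -0.15 to 0.062, with the other sign (0.062) without control 4. Except where the construction shows it (fewer arrays or genes, a subtracted shift), the cause was not tested. No paired analysis was possible because replicate numbers were given in accession order and, although litters with cKO mice also gave controls, the labels do not say which mice shared one. The title letter as a block, which pairs no single mice, gave 26. Background signal can limit what dim members show.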
